A study of Arabidopsis thaliana with 12 samples.

Results

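The dissected shoot apex of mock-treated Arabidopsis thaliana seedlings was compared with whole mock-treated seedlings, to see which transcripts the apex sample held more or less of. The comparison takes 6 of the 12 arrays of the series, chosen by their titles: 3 of the apex and 3 of whole plants. All plants were Col-0, grown on 1/2 MS agar at 21 °C under 24 h light. The mock groups had 0.1% of the solvent DMSO and no other compound. The labels give an age of 4 days, and the series text gives 7 days. For the apex group the shoot apical meristem part was cut out with a micro knife under a microscope before freezing, while whole plants went straight from the plate into liquid nitrogen. The whole plants therefore also held roots, hypocotyl, cotyledons and the apex itself. How many plants went into a sample is not given in the sources used here. The other 6 arrays, 3 with 50 µM of the inhibitor L-AOPP and 3 with L-AOPP and 10 nM of the auxin IAA, are also of the apex, and serve here for the shared estimate of spread.

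The shoot apical meristem is a small dome of dividing cells that keeps a pool of stem cells at its tip and forms leaf primordia on its flanks. Stem cell number is held by the peptide CLV3 and its receptors, while boundary genes such as LAS separate the primordia from the dome. HD-ZIP III genes such as PHV set the upper face of young leaves, and auxin maxima mark where the next leaf will form. Cells there divide often, and their plastids are still maturing. Roots, mature cotyledon mesophyll and conducting tissue carry other sets of transcripts, among them root hair cell wall proteins, photosynthesis genes and sugar exporters.

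Each value is a linear MAS5 signal of 1 probe set on 1 array. Signals below 20 were set to 20 and log2 was taken. Where any array of a gene's lower group lies below 20, its difference and fold are lower bounds in size. The floor also narrows the spread within that group, so the SE and p-value of such a gene can be too small. Signals of different probe sets are not compared as amounts of transcript. Tested were 14634 of the 22746 probe sets that are not Affymetrix controls, those with a mean signal of 100 or more in either group. The nearest means on either side of that limit were 100 and 99.97. Of the probe sets tested, 7953 are annotated to 1 gene and 1154 of these carry a name other than a locus code, so the named families below are seen in part only. Calls are made where limma's two-sided test gave an adjusted p under 0.05 (Benjamini-Hochberg over the 14634). Below, triplets of signals are in the order of replicates 1, 2 and 3, the apex first, and all differences are log2 of apex minus log2 of whole plants with n = 3 arrays a group. Whether each replicate was its own culture is not given, and p-values rest only on array-to-array spread, which could be technical in part. The table has no detection calls, so a low signal does not show that a transcript was absent.

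The arrays of each group lay close together. Spearman correlations over the tested probe sets ran from 0.980 to 0.988 between mock apex arrays, from 0.982 to 0.986 between whole plant arrays, and from 0.774 to 0.800 between the groups. One array stood apart in its controls: on mock apex replicate 3 the 25S rRNA control read 164, against 5170 to 10331 on the 11 others. For the GAPDH controls, log2 of the 3' over the 5' signal was 1.85, 1.39 and 2.1 in the mock apex and 0.94, 1.01 and 0.97 in whole plants. Such a ratio is a usual check of RNA quality, and here it moves with the groups. Its part in the results was not tested beyond a fit that carries it as a covariate, called the GAPDH covariate here. Where it ended a call is said for the genes named by rule. Other genes given below, among them those named after their values were seen, were not followed gene by gene in that fit. Since these are bulk samples, fewer cells of a type and less RNA per cell cannot be told apart in any difference below.

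Calls were common in both directions. Of those tested, 6539 (44.7%) were called higher in the apex and 4209 (28.8%) lower. With the GAPDH covariate the counts were 4042 and 2740. With a difference of at least 2-fold as well, 2196 (15%) were higher and 2135 (14.6%) lower. The signals of the groups did not overlap for 10848 (74.1%). With such a background a called gene is common. Each gene list below is to be read against these shares, also where they are not repeated. Its size of difference matters more than its calls. The median difference over all tested probe sets was 0.20, and it was 0.10 after quantile normalization and 0.07 after centring each array on its median. Differences in the text are not corrected for that shift and are to be read against it.

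Large differences ran mostly one way. At least 4-fold, 322 probe sets were higher in the apex and 885 lower, and without mock apex replicate 3 the counts were 307 and 853. At least 16-fold, 11 were higher and 174 lower, and at least 64-fold 0 were higher and 25 lower. For 171 of the 885, all 3 apex arrays lay below the floor of 20, as all 3 whole plant arrays did for 8 of the 322. Folds of such probe sets are limited by the floor and are lower bounds.

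**Figure D1:**
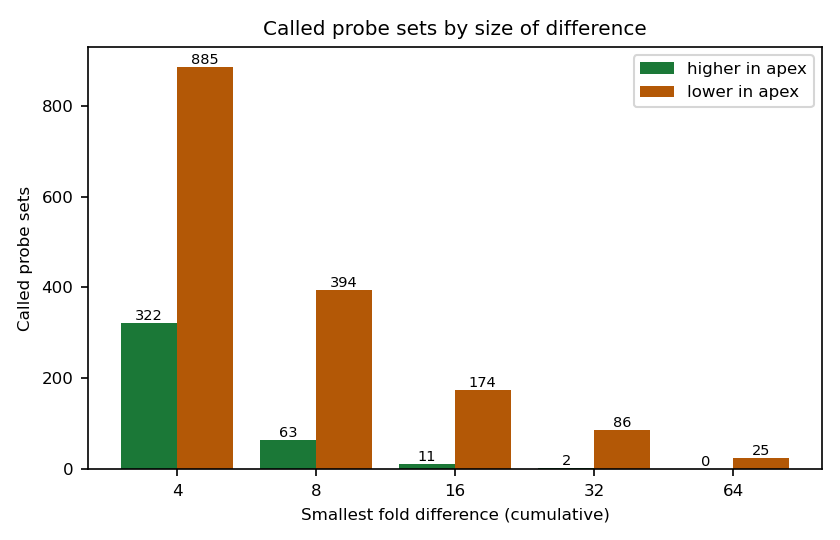
Number of called probe sets (y axis) by the smallest fold difference (x axis, cumulative), higher in the mock apex (green bars) and lower (orange bars). The lower side is larger at every size, from 885 against 322 at 4-fold to 25 against 0 at 64-fold.

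The defining markers of the labelled tissue were looked at on each array. CLV3, the stem cell peptide, read 186, 102 and 140.2 on the mock apex arrays and 2.9, 48.2 and 22.7 on the whole plant arrays. All 3 apex arrays exceeded all 3 whole plant arrays, and the difference was 2.31 ± 0.36 SE, adjusted p = 4.02e-05, which missed the threshold once that GAPDH ratio entered the fit (1.38, adjusted p = 0.127). UFO, an F-box protein of the meristem, read 161, 124 and 149.8 against 29.3, 32.6 and 35, a difference of 2.16 ± 0.19. PHV, the HD-ZIP III gene, read 1519.8, 1169 and 1277 against 262, 291 and 305, 4.6-fold higher. LAS, a GRAS gene of the axils of leaf primordia, read 154, 139.6 and 133 against 46.4, 37.4 and 40.3, 3.44-fold higher. CLV3, UFO and LAS passed the filter through the apex mean alone, which fixed their direction, while PHV was at 100 or more in both groups. The summed signal of these 4 markers was 1534 to 2021 in the apex and 341 to 409 in whole plants. No other gene of the 18 fixed as shoot markers is named on the array by this annotation.

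The root and leaf markers named on the array were lower, and the leaf markers still read high in the apex. The root hair expansins EXPA7 and EXPA18, the 2 named of 16 root markers, summed to 44.3 to 57.4 in the apex and 573.9 to 785.9 in whole plants, and EXPA7 lay below 20 on all 3 apex arrays. EXPA7, EXPA18 and, below, FAMA passed the filter through the whole plant mean alone, which fixed their direction. The 4 named of 10 leaf markers (RCA, LHCB4.1, PRK and SBPASE) summed to 35082 to 37350 in the apex and 84627 to 96495 in whole plants. RCA alone, which activates Rubisco, still read 14563, 14021 and 14866 in the apex. Of the stomatal lineage, 3 of 8 markers are named: SPCH did not pass (0.40, adjusted p = 0.229), FAMA was lower (-1.20, adjusted p = 0.000344) and MUTE was too weak to test. The summed signal of these 3 was 163 to 271 in the apex and 255 to 354 in whole plants, so the groups overlapped. TRY, the 1 named of 4 trichome markers, differed by -0.33 (adjusted p = 0.168). No marker fixed for xylem, phloem or epidermis is named on the array, so those tissues were not checked.

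**Figure D2:**
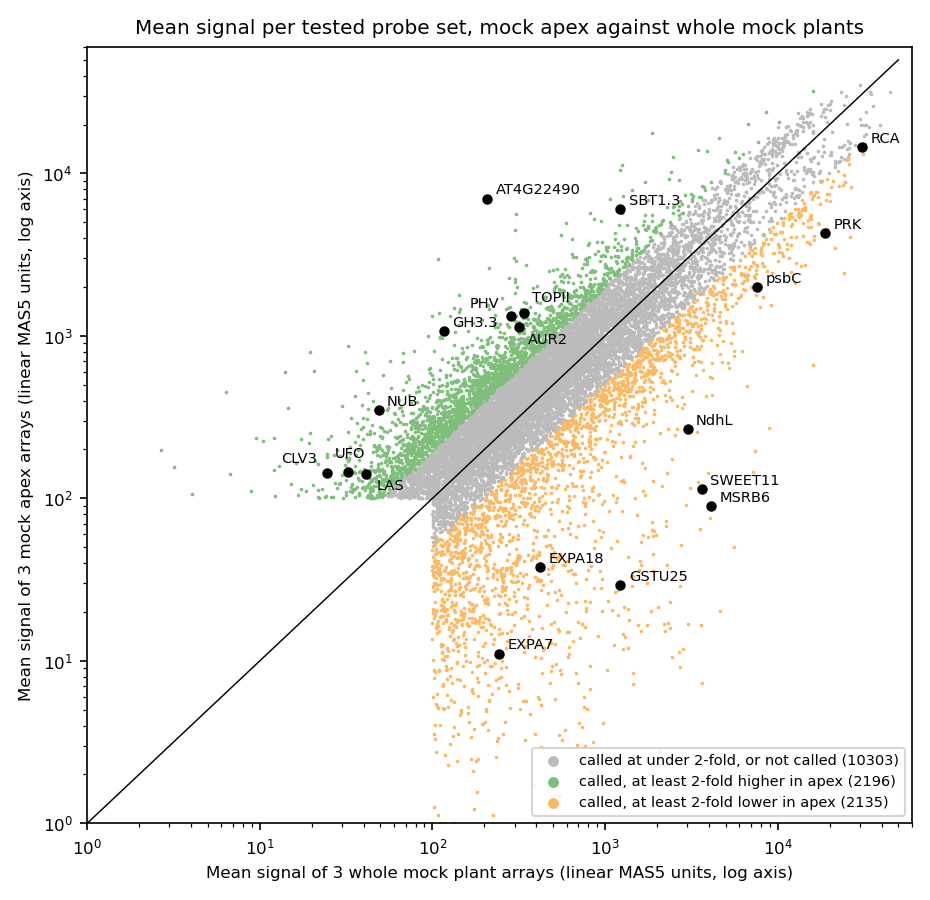
Mean signal of the 3 mock apex arrays (y) against the 3 whole mock plant arrays (x), both in linear MAS5 units on log axes, for the 14634 tested probe sets, with means below 1 drawn at 1. Green and orange mark called differences of at least 2-fold, the line marks equal signal, and the empty corner at the lower left is the filter at 100. CLV3, UFO, LAS and PHV lie above the line, EXPA7, GSTU25, SWEET11 and NdhL far below it.

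Regulators of the shoot meristem, organ boundaries and young lateral organs were higher in the apex as a group. Of 28 on the array 26 were tested, 22 were higher and 1 lower, and 18 were at least 2-fold higher, which is 69.2% of the list beside 15% of all probe sets. The median difference was 1.27, beside 0.21 over all genes tested. Counts with the GAPDH covariate were 17 higher and 1 lower. Because a gene could enter the test through the apex mean alone, some of these had to differ. The same holds for every list below, in either direction, so the median over members measured at 100 or more in both groups is given beside many of them. Over the 10 members with a mean of 100 or more in both groups, the median was 1.07, beside 0.22 over all genes measured that well. These 44 lists were chosen with earlier results of these data known, so their direction is a description.

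Organ growth genes led the list. NUB, a zinc finger gene that acts with JAG in lateral organ growth, read 344, 362 and 347 on the mock apex arrays and 58.5, 52.9 and 35.4 on the whole plant arrays. That is 7.33-fold (2.87 ± 0.18 SE, adjusted p = 4.53e-09). The glutaredoxin gene ROXY1, known for petal initiation, read 752, 709 and 739 against 112, 157 and 141, 5.42-fold higher. The MADS box gene AGL24, which promotes flowering, read 168, 149 and 174 against 15.5, 46 and 3.7, with 2 of its whole plant arrays below the floor. In all these genes the groups were far apart, and their signals in the apex were moderate.

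PTL, a trihelix gene known for flower organ growth, differed by 2.30 ± 0.24, and LOJ, named for the junction of lateral organs with the stem, by 2.22 ± 0.23. JAG, the partner of NUB, read 169, 172 and 216 against 48.8, 43.1 and 50.8, a difference of 1.96 ± 0.15. CR4, also named ACR4, an epidermal receptor kinase, differed by 1.57 ± 0.13 and SHI by 1.56 ± 0.18. The polarity gene YAB3 varied among the apex arrays, reading 894, 1400.1 and 1703 against 534, 534 and 531, a difference of 1.27 ± 0.17 with no overlap. The glutaredoxin ROXY2 differed by 1.27 ± 0.44, but its lowest apex array (107) lay just above its highest whole plant array (104).

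Other members of the list differed less. NGA2 (1.18), TCP15 (1.15), the bHLH gene SPT (1.10) and AN, a regulator of leaf width (1.03), were all about 2-fold higher. AGO7, the Argonaute of the trans-acting siRNA pathway, differed by 0.88 ± 0.21, LSH5 by 0.70 ± 0.17, BPEp by 0.69 ± 0.28 and the corepressor SEU by 0.55 ± 0.10. BPEp was called although its groups overlapped, at 157, 117 and 67.1 against 67.3, 65 and 66.9. ULT1 (0.37, adjusted p = 0.138), YAB5 (-0.24, adjusted p = 0.0636) and NGA1 (-0.41, adjusted p = 0.125) did not pass. LSH9 was the 1 member lower in the apex, at 75.5, 71.8 and 73 against 182, 247 and 153 (-1.37 ± 0.31 SE, adjusted p = 0.00118). NGA3 and NGA4 were below 100 in both groups and were not tested.

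Of 5 B3 domain REM genes, a family many members of which are known from reproductive meristems, 2 were strong enough to test and both were higher. Both passed the filter through the apex mean alone, which fixed that direction. AT4G31615 read 171, 135 and 159 on the mock apex arrays and 4.1, 4.5 and 1 on the whole plant arrays. Every whole plant array lay below the floor, so its difference of 2.95 is a lower bound. AT2G35310 read 219, 218 and 201 against 43.9, 56.5 and 46.5, a difference of 2.13 ± 0.17. On the 6 apex arrays with L-AOPP these genes read 95.3 to 169 and 168 to 273, again above the whole plant values, though those plants also differ in treatment.

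Genes of auxin synthesis, conjugation and signalling were higher in the apex in most tested members. Of 20 on the array 11 were tested, 7 were higher, 2 lower, and 6 (54.5%) were at least 2-fold higher. Among all probe sets 44.7% were higher, 28.8% lower and 15% at least 2-fold higher. The median was 1.85 over all 11 and 0.66 over the 7 measured at 100 or more in both groups. Among the enzymes that join auxin to amino acids, GH3.3 read 933, 934 and 1357 on the mock apex arrays and 134, 115 and 99.8 on the whole plant arrays, 9.16-fold higher (3.19 ± 0.19 SE, adjusted p = 2.33e-09). WES1, also named GH3.5, read 1267, 1065 and 1619.5 against 396, 257 and 255, a difference of 2.13 ± 0.18. The synthesis gene YUC4, a flavin monooxygenase, read 228, 213 and 254 against 29.7, 39.8 and 5.2, a difference of 3.01 ± 0.21. IAA30, of the Aux/IAA repressor family, read 177, 231 and 175 against 36.7, 54.7 and 44.1, a difference of 2.11 ± 0.19. No group overlapped in these 4 genes. The 2 lower members, named after their values were seen, were YUC2 (-1.12 ± 0.34), a second member of the YUC family, and IAGLU (-1.41 ± 0.15), which glucosylates auxin. Both YUC genes were called in the fit without the GAPDH covariate, on opposite sides. With it, 5 of the 11 genes tested were called higher and 1 lower.

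**Figure D3:**
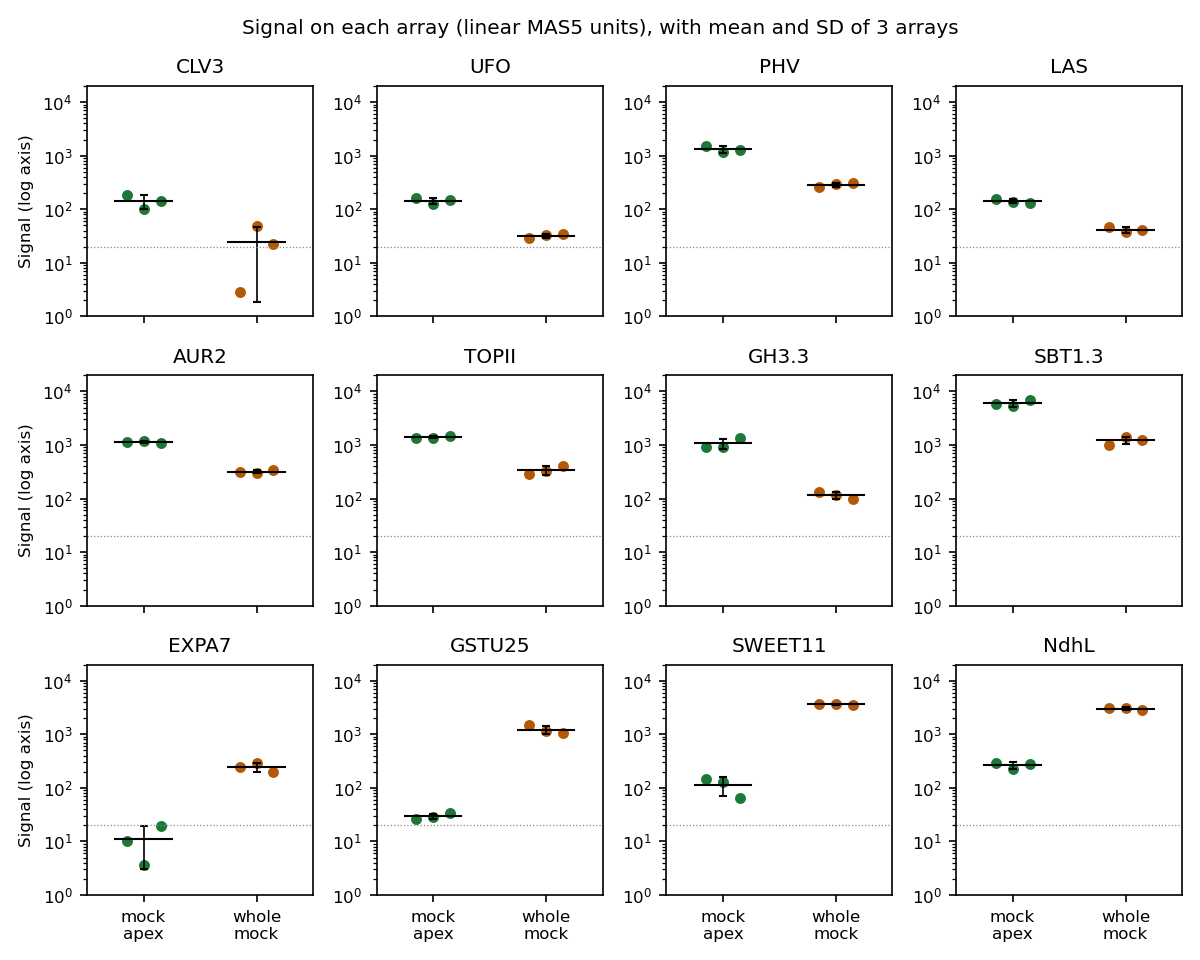
Signal of 12 genes on each of the 3 mock apex arrays (green) and 3 whole mock plant arrays (orange), in linear MAS5 units on a log axis, with the mean (bar) and SD (whisker). The dotted line is the floor of 20. In all 12 genes the groups do not overlap, with 1 whole plant array of CLV3 and all 3 apex arrays of EXPA7 below the floor.

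Genes of cell division were mostly higher. Of 20 mitosis and cytokinesis genes tested, 18 were higher and 1 lower, beside 44.7% and 28.8% of all probe sets. At least 2-fold higher were 11 (55%, beside 15%). The median was 1.28 (0.74 over the 16 measured at 100 or more in both groups). The mitotic kinase AUR2, of the Aurora family, read 1116, 1197 and 1089 on the mock apex arrays and 317, 298 and 342 on the whole plant arrays. The groups were far apart, at 1.83 ± 0.08 SE, adjusted p = 1.04e-10. WYR, a protein related to the inner centromere protein of animals, read 315, 301 and 393 against 62.2, 98.6 and 72.1, a difference of 2.13 ± 0.18. FU, the FUSED kinase needed for cytokinesis, read 922, 1021 and 1228 against 283, 263 and 191, a difference of 2.12 ± 0.14, while a second FU probe set was too weak to test (means 27.1 and 32.7). KINESIN-12B, a motor of the phragmoplast that builds the new cell wall, read 439, 407 and 464 against 105, 124 and 138, a difference of 1.84 ± 0.12. The 1 lower member, SIM, an inhibitor of cyclin-dependent kinases in cells that endoreduplicate, differed by -0.57 ± 0.14 and was named after its value was seen. The GAPDH covariate gave 13 higher and 0 lower of the 20, so the call of SIM was lost.

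DNA replication and repair genes followed. Of 23 tested, 21 were higher and 0 lower (by the same limma fit, and 20 and 0 of 22 without mock apex replicate 3), with 13 (56.5%) at least 2-fold higher and a median of 1.13. The GAPDH covariate gave 17 higher and 0 lower of the 23. Among all probe sets 44.7% were higher, 28.8% lower and 15% at least 2-fold higher in the main fit. TOPII, the type II topoisomerase, read 1337, 1372 and 1457 on the mock apex arrays and 283, 320.3 and 412 on the whole plant arrays, 4.15-fold higher (2.05 ± 0.12 SE, adjusted p = 2.89e-09). EME1A, partner of the MUS81 endonuclease, read 218, 211 and 219 against 74.4, 64 and 65.2, a difference of 1.67 ± 0.13. ATSMC2, a condensin subunit, differed by 1.66 ± 0.17, and ATMND1, known from meiotic recombination, by 1.65 ± 0.18. The last is also above 200 on each of the 6 other apex arrays (232 to 279).

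Histone and chromatin genes were higher in 24 of 26 tested and lower in 1, with a median of 0.83, although 9 (34.6%) were 2-fold higher. The shares of all probe sets were 44.7% higher, 28.8% lower and 15% at least 2-fold higher. The GAPDH covariate gave 18 higher and 1 lower. The H2B gene HTB2 read 4541, 4468 and 5384 on the mock apex arrays and 1213, 1389 and 1399 on the whole plant arrays. HTB1 differed by 1.66 ± 0.09, HTB4 by 1.14 ± 0.08 and HTB11 by 0.66 ± 0.08, so that all 4 H2B genes tested were higher, by unequal amounts. HTR12, the centromeric histone H3, read 419, 394 and 402 against 116, 139 and 96.5, a difference of 1.81 ± 0.13. 3xHMG-box2, which binds mitotic chromosomes, read 3682, 3888 and 3775 against 896, 893 and 902 (2.08 ± 0.07), and 3xHMG-box1 differed by 1.41 ± 0.17. The chromatin remodelling gene CHR40 had the largest difference of the list, at 188, 152 and 215 against 30.3, 22.4 and 28.6 (6.81-fold). The remodellers CHR17 (1.26), INO80 (0.85) and BSH (0.81) differed less, and CHR23 did not pass (0.32, adjusted p = 0.0545). The exception was the linker histone HIS1-3, known to be induced by drought, at 23.3, 17.5 and 31.7 against 158, 97.7 and 86.5 (-2.17 ± 0.26 SE, adjusted p = 2.71e-06). The linker histone HON4 by contrast was higher (0.60 ± 0.09).

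Transcription and RNA processing genes were higher in nearly every tested member. Of 12 subunits of the nuclear RNA polymerases, 11 were higher and 0 lower, with a median of 1.02. The group took in polymerase I (NRPA2, 903, 926 and 878 against 335, 385 and 362), polymerase II (NRPB9A, 251, 175 and 231 against 104, 71 and 63.4) and polymerase III (NRPC1, 236, 234 and 273 against 85.2, 108 and 95.1, and NRPC2, 639, 761 and 608 against 259, 235 and 269), with differences between 1.33 and 1.48. The 1 that did not pass, NRPB6B, differed by 0.17 (adjusted p = 0.134). Of 42 genes of RNA processing, ribosome assembly and nuclear export, 40 were higher and 0 lower, with a median of 0.84, and all 42 were at 100 or more in both groups, so none entered through the apex alone. For the lists given with 0 calls in 1 direction, the limma count at an unadjusted p under 0.05 in that direction was 0 as well, except for 1 gene lower in this list. RRP41L, related to an exosome subunit, read 616, 538 and 538 against 184, 148 and 225, a difference of 1.62 ± 0.13. The exportin XPO1B (1.34 ± 0.12), the nuclear pore protein NUP155 (1.33 ± 0.14) and the RNA helicase AT3G09720 (1.31 ± 0.21) came next, the last uncalled with the GAPDH covariate (adjusted p = 0.0733). The share of this list called higher is well above the 44.7% of all probe sets, and its 2-fold share of 26.2% stands beside 15%. Counts with the GAPDH covariate were 31 higher and 0 lower of the 42, and 10 and 0 of the 12 polymerase subunits.

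**Figure D4:**
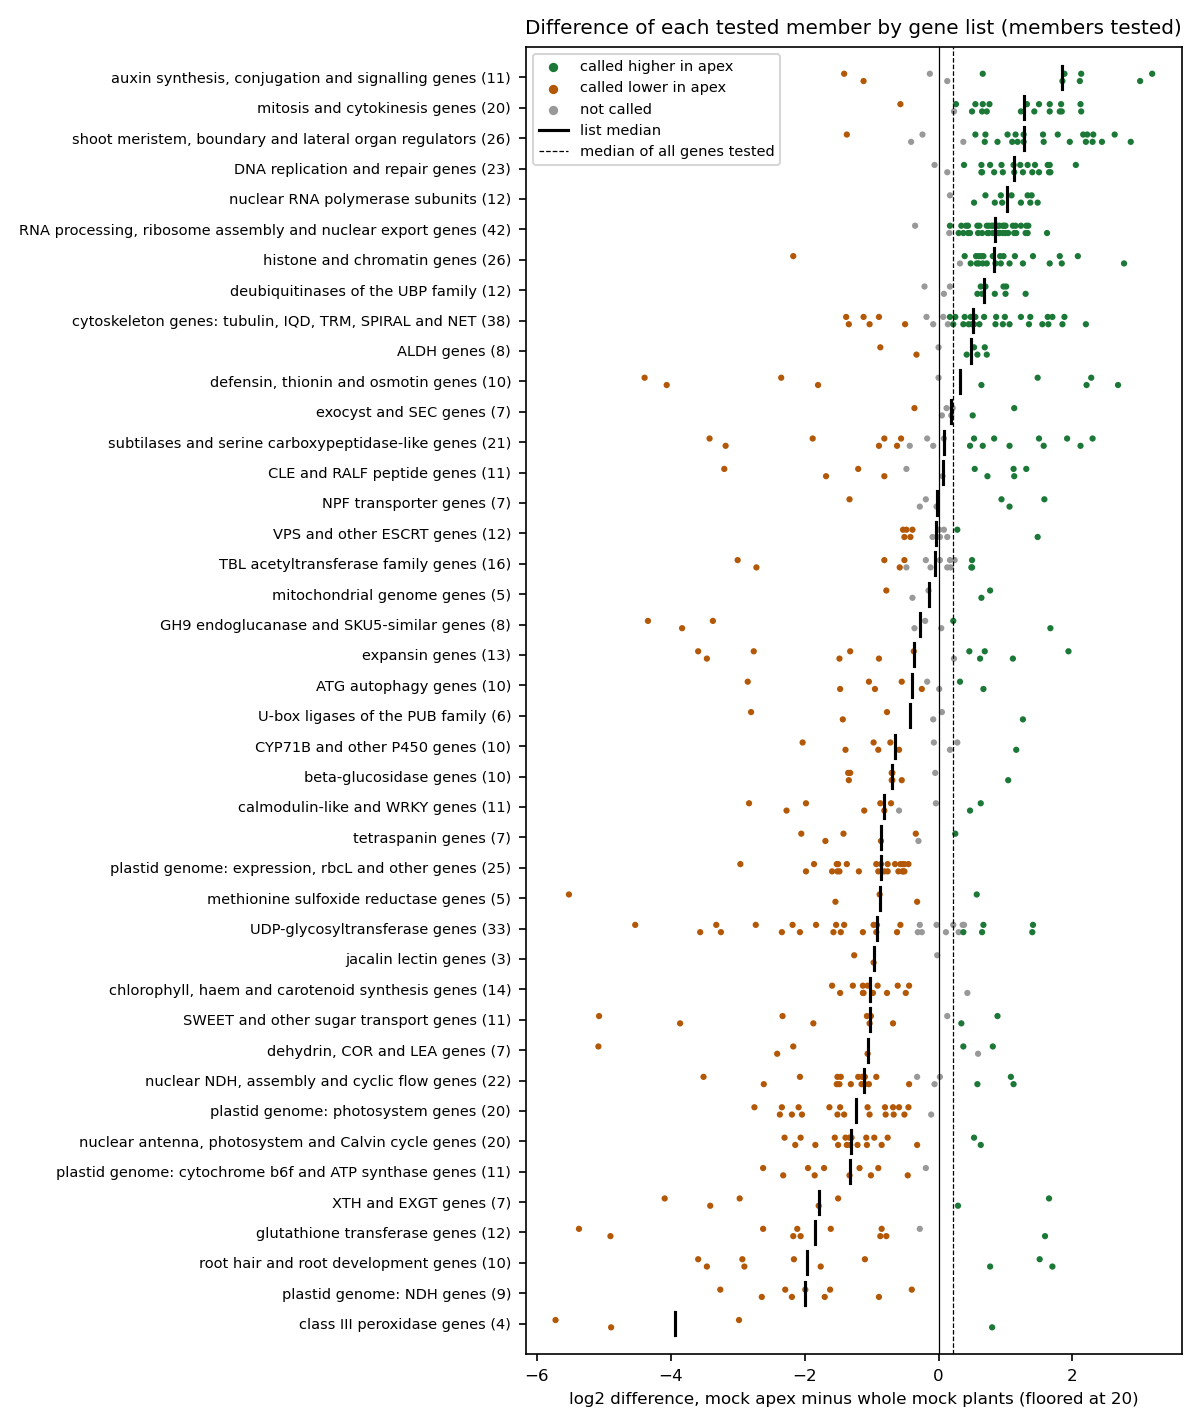
Log2 difference (x axis) of each tested member of the gene lists reported here with at least 3 tested members, ordered by list median (black bar), with the number tested in brackets. Green points were called higher in the apex, orange lower, grey not called. The dashed line is the median of all genes tested, 0.21. Auxin, division and RNA lists sit to its right, photosynthesis, glutathione transferase and root lists to its left.

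Ubiquitin pathway families were divided, and their counts stand beside 44.7% higher and 28.8% lower of all probe sets. Of 12 UBP deubiquitinases, 9 were higher and 0 lower, led by UBP15, known to promote organ growth (590.2, 521 and 674 against 271, 235 and 219, 1.3 ± 0.12), then UBP24 (1.01), UBP23 (1.00) and UBP21 (0.97, uncalled with the GAPDH covariate). With that covariate 5 of the 12 were higher. Of 6 U-box ligases tested 3 were lower and 1 higher, with a median of -0.42, and 0.05 over the 3 at 100 or more in both groups. PUB22 (21.4, 30.7 and 46.2 against 172, 304 and 197, -2.80 ± 0.31), PUB23 (-1.43) and PUB25 (-0.77), of which PUB22 and PUB23 are known as brakes on immune signalling, were lower and PUB49 higher (425, 546 and 511 against 209.6, 192 and 214, 1.26 ± 0.12). The calls of PUB23 and PUB25 were lost with the GAPDH covariate, and the signals of PUB23 overlapped (42.8, 76.7 and 39 against 75, 247 and 135).

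Cytoskeleton genes were higher in 28 of 38 tested and lower in 6, beside 44.7% and 28.8% of all probe sets. At least 2-fold higher were 11 (28.9%, beside 15%). The median was 0.52, and 0.48 over the 29 at 100 or more in both groups, beside 0.21 over all genes tested. With the GAPDH covariate 15 were higher and 5 lower. TRM22, of a family that recruits the TON1 microtubule proteins, read 711, 706 and 739 against 160.3, 143 and 165, a difference of 2.20 ± 0.11. The actin-binding NET1A (684, 759 and 674 against 205, 176 and 205, 1.85 ± 0.10), IQD26 (1.88 ± 0.18) and the SPIRAL1-like gene SP1L2 (1.70 ± 0.25) followed. Trafficking genes were near the centre. The 7 exocyst and SEC genes had a median of 0.19, with SEC15A (1.13) and EXO84B (0.51) higher and SEC22 lower (-0.36), and all 3 calls were lost with the GAPDH covariate. The 12 ESCRT genes had a median of -0.04, in which VPS2.2 (1509, 1346 and 1157 against 545, 424 and 468, 1.48 ± 0.11) stood apart from VPS2.1 (-0.48 ± 0.08), VPS60.1 (-0.53 ± 0.11) and SNF7.1 (-0.51 ± 0.14), all lower by less than 2-fold. With the GAPDH covariate 1 of the 12 was higher and 1 lower, VPS2.1 was uncalled (-0.42, adjusted p = 0.0667) and SNF7.1 turned sign (0.08, adjusted p = 0.781).

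Of 21 subtilases and serine carboxypeptidase-like genes tested, 10 were higher and 7 lower, shares near the 44.7% and 28.8% of all probe sets. The subtilase SBT1.3 read 5898, 5284 and 6928 on the mock apex arrays and 1015, 1398 and 1265 on the whole plant arrays (2.30 ± 0.11 SE, adjusted p = 3.99e-10). SBT4.12, a second subtilase, read 127, 90.6 and 99.6 against 1092, 1168 and 1098, 10.7-fold lower. Likewise scpl35 was higher (1899.5, 2795 and 2333 against 452, 449 and 737, 2.12 ± 0.17), and scpl28 lower (1.2, 26.7 and 10.7 against 165, 232 and 209, -3.18, a lower bound in size). Of 11 genes tested in the list of CLE and RALF peptides, which also holds STOMAGEN, 5 were higher and 4 lower, again near the shares of all probe sets. CLE27 read 183, 144 and 165 against 73.9, 54.6 and 71 (1.31 ± 0.17), while RALFL27 lay below 4 on every apex array (3.5, 3.4 and 0.6 against 199, 171 and 182), at least 9.18-fold lower. RALFL33 (-1.20 ± 0.14) and STOMAGEN, a peptide made in the mesophyll that promotes stomata (293, 436 and 340.0 against 1022, 1056 and 1323, -1.68 ± 0.18), were lower as well.

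Genes of the plastid genome were lower in the apex almost throughout. Of 69 on the array 65 were tested, 0 were higher and 63 lower, against 44.7% and 28.8% of all probe sets, and 37 were at least 2-fold lower, with a median of -1.19. In 63 of the 65 every apex array lay below every whole plant array. Of all probe sets tested, 74.1% did not overlap, in either direction. The sum of the 65 signals was 351519, 327434 and 341494 in the mock apex and 600865, 554993 and 515264 in whole plants. These genes are transcribed from few operons and their signals can share RNA molecules, so they are not independent readings. Without mock apex replicate 3, 63 were still lower, but 31 in place of 37 reached 2-fold and the median was -0.97. With the GAPDH ratio as a covariate 28 of the 65 were called lower, 13 of them at least 2-fold, with a median of -0.95.

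The mock apex replicate that stood apart in its rRNA control also had the lowest median plastid signal. Mock apex replicate 3 was the lowest of the 3 apex arrays for 43 of the 65 genes. The median plastid signal was 2353, 2248 and 1488 on the mock apex arrays and 6418, 5638 and 5265 on the whole plant arrays. For psbC, a core antenna protein of photosystem II, the apex read 2787, 2540.2 and 647 against 9004, 7553 and 6347 in whole plants, a difference of -2.19 ± 0.45 SE, adjusted p = 0.00053. For psbN the third apex array read 66.2 against 622 and 540.4 on the others. On the 6 other apex arrays psbC read 1972 to 5387. The summed signal of the third array lay between those of the other mock apex arrays. Genes more than 2-fold below the whole plant mean numbered 29, 35 and 42 on the mock apex arrays. On the apex arrays with L-AOPP alone they numbered 35, 41 and 9, and with L-AOPP and IAA 13, 17 and 24. Those plants also differ in treatment.

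By complex, the genes of the plastid NDH complex, which drives cyclic electron flow, were lowest, with a median of -1.99 and 7 of 9 at least 2-fold lower. ndhG, the lowest of all, read 6.5, 25.6 and 36.1 on the mock apex arrays and 353, 248 and 186 on the whole plant arrays. Its difference was -3.26 ± 0.40 SE, adjusted p = 4.49e-06, and without mock apex replicate 3 the NDH median was -1.72. ndhE (-2.64 ± 0.47), ndhK (-2.29 ± 0.35) and ndhJ (-2.19 ± 0.29) were next, while ndhC differed by only -0.40 ± 0.09 at 7847, 6956 and 9061 against 11040.2, 10040.2 and 10153. The call of ndhE was lost with the GAPDH covariate (adjusted p = 0.0535), as was that of ndhK (adjusted p = 0.0673).

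Photosystem genes had a median of -1.24, with 19 of 20 lower and 12 at least 2-fold. psaA, a reaction centre protein of photosystem I, read 131, 101 and 42.6 against 524, 451 and 325 (-2.37 ± 0.39), while psaB, its partner, read 17177, 15201 and 15432 against 26845, 27129.6 and 22779 (-0.68 ± 0.15). psbB (-2.34 ± 0.46) and psbD (-2.09 ± 0.32), of photosystem II, were low, whereas psbM did not pass (-0.11, adjusted p = 0.384). The cytochrome b6f and ATP synthase genes had a median of -1.33, with 10 of 11 lower. The ATP synthase genes showed the full range: atpI read 215, 199.6 and 75.2 against 1008, 931 and 798 (-2.62 ± 0.32), atpH 1663, 1433 and 522 against 5913, 5638 and 4690.1 (-2.32 ± 0.35), atpF 628, 507 and 329 against 2139, 1687 and 1674 (-1.95 ± 0.35), and atpB 24744, 25706 and 28011 against 36818, 37419 and 33356 (-0.46 ± 0.09). atpE did not pass (-0.19, adjusted p = 0.11). The calls of psaA, psbB, psbC, psbN, atpF and atpH were lost with the GAPDH covariate, that of atpI was not.

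The 25 plastid genes of gene expression and other functions were all lower, with a smaller median of -0.86 and 10 at least 2-fold. The large Rubisco subunit rbcL read 2415, 1955 and 2733 against 7469, 6321 and 5968 (-1.48 ± 0.19). ycf3, which assists assembly of photosystem I, read 1059, 1061 and 318 against 4926, 7146 and 4746 (-2.96 ± 0.42), cemA 1610.3, 1885 and 475 against 5861, 4115 and 3687 (-1.98 ± 0.49), ycf4 differed by -1.86 ± 0.42 and rps2 by -1.59 ± 0.26. The calls of ycf3, cemA, ycf4 and rps2 were lost with the GAPDH covariate. The polymerase subunits rpoA (-0.65), rpoC1 (-0.93) and rpoC2 (-1.19) and ribosomal proteins such as rps3 (-0.45) and rpl14 (-0.53) differed less. A pattern by level, noticed in the values, runs through all 65 genes: of the 24 with a whole plant mean of 10000 or more, 4 were at least 2-fold lower, and of the 41 under it, 33 were. Its cause was not tested.

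**Figure D5:**
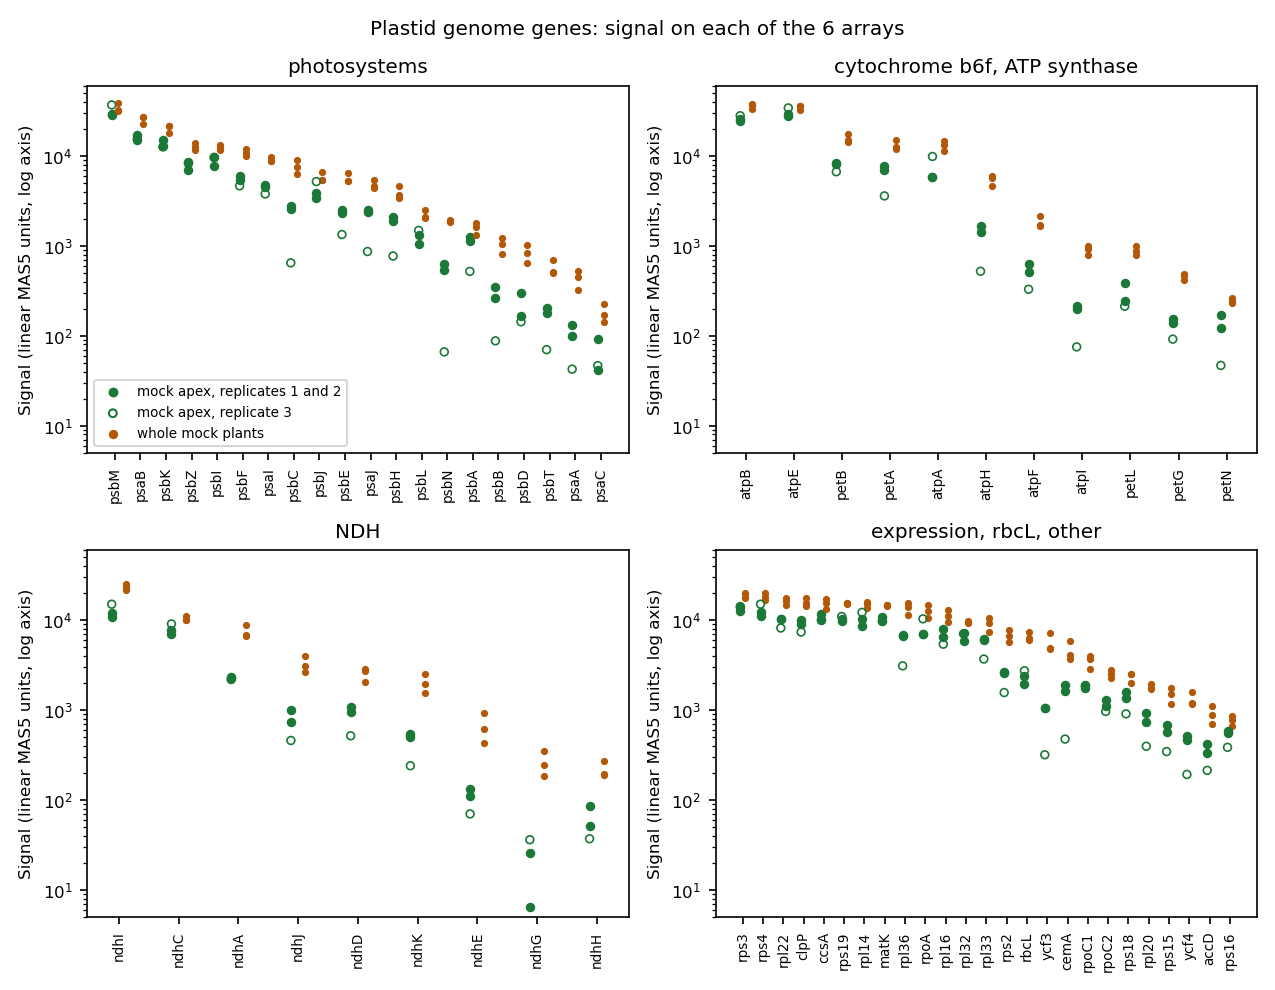
Signal (linear MAS5 units, log axis) of the 65 tested plastid genome genes on each of the 6 arrays, by complex and ordered by whole plant mean. Green points are mock apex arrays, open circles its replicate 3, and orange points whole plant arrays. The gap between the groups is small for the genes at 10000 or more and wider below, and many open circles lie under the filled ones.

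Few mitochondrial genome genes were measured. Of 16 genes on the array 5 were tested, 2 were higher, 1 lower, and none reached 2-fold in limma. These counts are near the 44.7% higher and 28.8% lower of all probe sets. ccb452 and ccb382, of cytochrome c maturation, differed by 0.77 ± 0.19 and 0.64 ± 0.20, and cox1, of complex IV, by -0.78 ± 0.21. The calls of ccb452 and cox1 were lost with the GAPDH covariate, and that of ccb382 without mock apex replicate 2 (adjusted p = 0.0594) or whole plant replicate 3 (0.0542). The difference between the organelles was not tested.

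Nuclear photosynthesis genes were also lower. Of 20 antenna, photosystem and Calvin cycle genes 18 were lower and 2 higher, 14 (70%) at least 2-fold lower beside 14.6% of all probe sets, and the median was -1.31. All 20 had means of 100 or more in both groups. None of the 20 overlapped, and neither did 74.1% of all probe sets tested. The Calvin cycle kinase PRK read 4199.6, 4201 and 4420.3 on the mock apex arrays and 19429.5, 18683 and 18499.9 on the whole plant arrays, 4.42-fold lower (-2.14 ± 0.08 SE, adjusted p = 4.32e-11). SBPASE, a phosphatase of the same cycle, read 3855, 3893 and 3942 against 17362, 15583 and 15739.7 (-2.06 ± 0.07). PSB27, which assists assembly of photosystem II, read 5079, 4837 and 4742 against 17576, 18212 and 16547 (-1.84 ± 0.07), and the antenna gene LHCB4.3 743, 684 and 666 against 3659, 2897 and 3838 (-2.30 ± 0.19). None of these 4 calls was lost under any alternative run. The 2 higher genes, named after their values were seen, were AT4G38100 (0.63 ± 0.16) and ATPC2 (0.53 ± 0.11), a second gene for the ATP synthase gamma subunit, while ATPC1 was lower (-1.21 ± 0.09). The GAPDH covariate gave 0 higher and 18 lower of the 20, so both higher calls were lost.

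Nuclear genes of the NDH complex and its assembly were mostly lower, beside 28.8% lower and 44.7% higher of all probe sets. Of 22 genes in the list of NDH subunits, assembly and cyclic flow, which also holds organelle RNA editing genes, 16 were lower and 3 higher, with a median of -1.12. NdhL read 293, 221 and 284 on the mock apex arrays and 3122, 3076 and 2825 on the whole plant arrays, 11.4-fold lower (-3.51 ± 0.14 SE, adjusted p = 4.32e-11). NdhN read 398, 437 and 367 against 2479.6, 2388 and 2463 (-2.61 ± 0.13) and NdhS 778, 776 and 935 against 3307, 2927 and 4273 (-2.07 ± 0.13). PIFI, a further NDH factor, read 1551, 1463 and 1431 against 3963, 4205 and 4622 (-1.52 ± 0.13). The 3 higher genes, named after their values were seen, were OTP81 (1.12 ± 0.20), OTP87 (1.08 ± 0.20) and CRR22 (0.58 ± 0.17), which encode organelle RNA editing proteins. Counts with the GAPDH covariate were 2 higher and 15 lower of the 22. In chlorophyll, haem and carotenoid synthesis 13 of 14 were lower and 0 higher in the limma fit. Without mock apex replicate 3 the counts were 12 and 1. With the GAPDH covariate 12 were lower and 1 higher, 2 were at least 2-fold lower, and the median was -0.86. In the main fit 7 were at least 2-fold lower, and the median was -1.02. HEME1 (967, 1207 and 760.4 against 2886, 3129 and 2704, -1.59 ± 0.13) and HEME2 (-1.13 ± 0.11), of tetrapyrrole synthesis, CHLI2, a magnesium chelatase subunit (737, 882 and 589.9 against 2006, 2033 and 1990.1, -1.47 ± 0.12), and Z-ISO, a carotenoid isomerase (-1.28 ± 0.11), led.

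Root genes made up a second block of low signals. Of 10 root hair and root development genes tested, 7 were lower, all by at least 2-fold, and 3 higher. For all probe sets the shares were 28.8% lower and 44.7% higher. EXPA7 read 10.2, 3.6 and 19.6 on the mock apex arrays and 245, 287 and 198 on the whole plant arrays. With the apex at the floor, it was at least 12-fold lower (-3.59 ± 0.18 SE, adjusted p = 5.39e-10). EXPA18 read 35.2, 40.7 and 37.8 against 381, 499 and 376 (-3.46 ± 0.28). UPB1, a bHLH regulator of the root growth zone, read 8.9, 1.7 and 17.3 against 174, 125 and 155, again below the floor on every apex array, and GSO1, a receptor kinase of the root Casparian strip and of embryo cuticle, read 27.3, 11.9 and 16 against 180.0, 149.6 and 181 (-2.93 ± 0.33). The 3 higher members, named after their values were seen, were LHW (1.70 ± 0.11), a bHLH gene of vascular cell number, JKD (1.51 ± 0.25), a zinc finger gene of the root ground tissue, and LPR1 (0.77 ± 0.17), a ferroxidase. Counts with the GAPDH covariate were 1 higher and 6 lower of the 10. Only 2 of the 10 had means of 100 or more in both groups, with a median of 0.30 against -1.96 over all 10, so most members entered through the group where they were high.

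Cell wall families had members on both sides, as did all probe sets, with 44.7% called higher and 28.8% lower. Among 13 expansins, 5 were higher and 7 lower, and with the GAPDH covariate 2 and 4. The median was -0.37 over all 13 and 0.54 over the 8 at 100 or more in both groups. EXPA20 was higher (423, 363 and 427 against 89.7, 85.3 and 153, 1.94 ± 0.20) and EXPA9, besides EXPA7 and EXPA18, lower (100.3, 77.4 and 73.6 against 626, 561 and 503, -2.76 ± 0.16). Among 7 XTH genes, which cut and rejoin xyloglucan, 5 were at least 2-fold lower and 2 higher. The median was -1.79 over all 7 and 0.29 over the 3 at 100 or more in both groups, the others having entered through the whole plant mean. XTH18 read 7.3, 39.7 and 32.4 against 666, 491 and 386 (-4.09 ± 0.37), XTH19 77.6, 47.5 and 77.4 against 713, 718 and 668 (-3.41 ± 0.20), XTH20 11.9, 10.2 and 18.6 against 142, 153 and 178, with the apex at the floor, and XTH33 50.5, 34.6 and 42.7 against 145, 177 and 122 (-1.79 ± 0.24). XTH18, XTH19 and XTH20 are close relatives, so probe sets may read more than 1 of them. XTH32, named after its value was seen, was higher at 3411, 3455 and 3783 against 1126, 1004 and 1264 (1.65 ± 0.10).

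Of 8 GH9 and SKU5-similar genes 2 were higher and 3 lower, with a median of -0.28, and 0.04 over the 5 at 100 or more in both groups. The endoglucanase GH9B13 was higher (1005, 933 and 1303 against 356, 337 and 317, 1.67 ± 0.12) and GH9C1 lower (3.5, 33.5 and 19.5 against 324, 376 and 314, -3.83 ± 0.25). The SKU5-similar genes sks15 (3.6, 10.3 and 4 against 385, 479 and 361, with the apex at the floor) and sks16 (20.7, 18.7 and 15 against 194, 216 and 219, -3.37 ± 0.22) were lower. The TBL family of wall acetyltransferases was near the centre (median -0.05, 0.13 over the 13 at 100 or more in both groups, with 8 of 16 not called), except TBL30 (33.2, 11.1 and 4.5 against 194, 176 and 201, -3 ± 0.29) and TBL41 (46.8, 12.4 and 24.6 against 169, 234 and 166, -2.72 ± 0.38). TBL25 (-0.81, uncalled with the GAPDH covariate at adjusted p = 0.0502) and TBL37 (-0.58) were lower by less than 2-fold.

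Class III peroxidases, which can cross-link or loosen walls, were tested in 4 genes, of which 3 were lower and 1 higher. The 3 lower ones entered through the whole plant mean alone, which fixed their direction, and the higher one was at 100 or more in both groups. AT5G64120, also named PRX71, read 19.4, 10.1 and 28.3 on the mock apex arrays and 1129, 1175 and 1240.2 on the whole plant arrays, at least 52.6-fold lower (-5.72 ± 0.23 SE, adjusted p = 4.93e-11), with 2 apex arrays below the floor. AT5G66390, also named PRX72 and known from lignin formation, read 14.5, 17.2 and 13.4 against 687, 499 and 614, with the apex at the floor, and Prx37 read 46.7, 20.1 and 45.2 against 299.6, 254 and 273 (-2.98 ± 0.30). PRXR1 was higher in the apex, at 16134, 16421 and 17342 against 9407, 9759.5 and 9481 (0.80 ± 0.06).

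Detoxification and glycosylation families were lower in most called members. Among all probe sets 28.8% were lower and 14.6% at least 2-fold lower. Of 12 glutathione transferases tested, 10 were lower, 7 (58.3%) of them at least 2-fold, with a median of -1.84 (-0.86 over the 8 at 100 or more in both groups). GSTU25 read 26.4, 28.4 and 33.4 on the mock apex arrays and 1488, 1137 and 1051 on the whole plant arrays, 41.4-fold lower (-5.37 ± 0.30 SE, adjusted p = 1.18e-09). GSTU22 read 35.2, 30.7 and 29.8 against 1098, 884 and 891 (-4.90 ± 0.27), GSTU28 76.9, 43.4 and 46.5 against 237, 259.8 and 230.4 (-2.17 ± 0.28) and ATGSTF13 19.4, 26.3 and 14.2 against 156, 128 and 123 (-2.62 ± 0.20). Neighbouring GSTU genes are similar in sequence, and whether probe sets separate them was not checked. GSTU20, named after its value was seen, was the 1 member higher, at 19546, 19094 and 21891 against 6163, 6643 and 7291 (1.59 ± 0.08).

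Of 33 UDP-glycosyltransferases, 19 were lower and 5 higher, beside 28.8% and 44.7% of all probe sets. The median was -0.92, and -0.27 over the 22 at 100 or more in both groups. UGT76B1, which acts on isoleucic acid and salicylic acid, read 0.9, 19.5 and 1.6 on the mock apex arrays and 652, 342 and 444 on the whole plant arrays, and UGT71C1 1.7, 6.3 and 1.6 against 257, 199 and 258, both with the apex below the floor. UGT73B4 read 3.2, 37.2 and 3.9 against 323, 249 and 184, with 2 apex arrays below the floor. UGT72E2, which glucosylates monolignols, read 59.9, 61.8 and 33.6 against 456, 528 and 449 (-3.25 ± 0.28). The higher ones, named after their values were seen, were UF3GT (1.41 ± 0.39), of anthocyanin decoration, UGT74B1 (1.40 ± 0.12), of glucosinolate synthesis, UGT85A4 (0.67), UGT78D1 (0.65) and UGT80B1 (0.37). Counts with the GAPDH covariate were 2 higher and 16 lower of the 33.

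The 10 tested P450 genes, mostly CYP71B, had 6 lower and 1 higher, and with the GAPDH covariate 2 lower and 1 higher. Among all probe sets 28.8% were lower and 44.7% higher in the main fit. The list median was -0.65, and -0.21 over the 6 at 100 or more in both groups. CYP71B23 (37.4, 6 and 18.9 against 124, 89 and 91.3, -2.03 ± 0.30) and CYP71B29 (28.9, 45.1 and 73.7 against 143, 107 and 113, -1.39 ± 0.30) were lower and CYP71B37 higher (342, 301 and 222 against 105, 107 and 182, 1.16 ± 0.22). CYP71B23 and CYP71B29 passed the filter through the whole plant mean alone, which fixed their direction. CYP71B35 was close to the threshold (-0.97 ± 0.34, adjusted p = 0.0186) and was uncalled without mock apex replicate 3 (-0.69, adjusted p = 0.0971), and also without the filter and with the GAPDH covariate. Among 10 beta-glucosidases 8 were lower, with a median of -0.70, but 3 with the GAPDH covariate. Lower were BGLU33 (116, 141 and 123 against 333, 312 and 320.4, -1.35 ± 0.23), BGLU16 (416, 367 and 339 against 951, 984 and 889.5, -1.34 ± 0.11) and BGLU45 (-1.32 ± 0.26), while BGLU42 was higher (858, 951 and 759 against 365, 442 and 439, 1.04 ± 0.11). The calls of BGLU33 and BGLU45 were lost with the GAPDH covariate. Of 3 jacalin lectins JAL34 (3699, 3822 and 3478 against 9245, 8677 and 8410.0, -1.26 ± 0.06) and JAL33 (-0.97 ± 0.06) were lower.

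In the list of sugar transport genes, which also holds the synthase gene ATSPS4F, 8 of 11 were lower and 2 higher. Of these 11, 7 (63.6%) were at least 2-fold lower, and the median was -1.03. SWEET11, a sucrose exporter that loads the phloem of leaves, read 148, 129 and 65.7 on the mock apex arrays and 3641, 3704 and 3532 on the whole plant arrays, 33.6-fold lower (-5.07 ± 0.30 SE, adjusted p = 2.36e-09). ATSPS4F, a sucrose phosphate synthase, read 65, 54.3 and 73.6 against 863, 901 and 1016 (-3.86 ± 0.24). SWEET2 read 174, 178 and 169 against 918, 843 and 857 (-2.33 ± 0.16) and SWEET14 41.6, 52 and 13.7 against 128, 149.9 and 109.6 (-1.87 ± 0.38), the latter uncalled with the GAPDH covariate (-0.98, adjusted p = 0.305). Among 7 NPF transporters, 3 were higher and 1 lower, beside 44.7% and 28.8% of all probe sets. AT1G59740, also named NPF4.3, read 589.5, 474 and 535 against 182, 191 and 162 (1.58 ± 0.13), and AT1G33440 (1.06 ± 0.19) and AT2G26690 (0.94 ± 0.09) were higher as well, while AT3G21670 was lower (-1.33 ± 0.23). On the 6 apex arrays with L-AOPP, AT1G59740 read 157 to 197, near the whole plant level. The calls of AT1G33440 and AT3G21670 were lost with the GAPDH covariate.

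Stress and defence families had members on both sides, as did all probe sets, with 44.7% called higher and 28.8% lower. Of the dehydrin, COR and LEA genes 4 of 7 were lower and 2 higher. The median was -1.06 over all 7 and 0.48 over the 4 at 100 or more in both groups. LTI30, a dehydrin, read 86.3, 59.4 and 57.2 on the mock apex arrays and 2321, 2340.4 and 2099 on the whole plant arrays, 33.9-fold lower (-5.08 ± 0.19 SE, adjusted p = 3.49e-11). COR47, a further dehydrin, read 1089.6, 1078 and 958 against 5475, 6032 and 5076 (-2.41 ± 0.13), and LEA4-5 (6, 14.6 and 28.7 against 78.6, 164 and 81, -2.17 ± 0.27) and COR15B (-1.06 ± 0.22) followed. COR15A, close to COR15B in sequence and named after its value was seen, was higher (0.81 ± 0.27), as was AT1G54410 (0.37 ± 0.07). The GAPDH covariate gave 0 higher and 4 lower of the 7, so both higher calls were lost. The methionine sulfoxide reductase MSRB6, which repairs oxidised proteins, read 107, 81.7 and 81.1 on the mock apex arrays and 3885, 3771 and 4711 on the whole plant arrays, 46-fold lower (-5.52 ± 0.20 SE, adjusted p = 1.76e-11), while MSRB9 (-1.54 ± 0.12) and MSRB5 (-0.88 ± 0.18) fell less and MSRA5 was higher (0.57 ± 0.12, uncalled with the GAPDH covariate).

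Among calmodulin-like, WRKY and related genes 7 of 11 were lower and 2 higher, with a median of -0.81, and -0.37 over the 6 at 100 or more in both groups. CML23 read 20.5, 15.2 and 23.7 against 135, 154 and 167 (-2.83 ± 0.35), the zinc finger gene STZ, also named ZAT10, 14.4, 23.5 and 79.9 against 122, 169 and 203 (-2.27 ± 0.44), WRKY6 42.5, 45.5 and 71.2 against 196, 228 and 189 (-1.98 ± 0.23) and CML42 249, 204 and 201 against 463, 534 and 419 (-1.11 ± 0.17). Of 10 defensin, thionin and osmotin genes 5 were higher and 4 lower, beside 44.7% and 28.8% of all probe sets. The median was 0.32, beside 0.21 over all genes tested, and 1.06 over the 4 at 100 or more in both groups. ATLP-1, a thaumatin-like gene, read 6753, 5706 and 8451 on the mock apex arrays and 1112, 1081 and 1023 on the whole plant arrays, 6.42-fold higher (2.68 ± 0.11 SE, adjusted p = 7.24e-11). Its relative OSM34 read 3.7, 1.9 and 11.5 against 483, 299 and 257, at the floor in the apex, and the defensin PDF2.5 27.1, 15.4 and 33.5 against 504, 558 and 595 (-4.39 ± 0.28). PR-1-LIKE also lay below the floor on every apex array (5.3, 1.3 and 4 against 102, 91.6 and 114). The tetraspanins were lower in 5 of 7, and in 2 with the GAPDH covariate, led by TET6 (41.5, 65.2 and 21.3 against 171, 157 and 153, -2.05 ± 0.31) and TET8 (454, 426 and 502 against 1836, 1722 and 1031, -1.69 ± 0.18), with TET3 (-1.42 ± 0.10) and TET5 (-0.86 ± 0.17). The calls of TET5 and TET6 were lost with the GAPDH covariate.

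Autophagy genes of the ATG8 family, which mark the forming autophagosome, differed among themselves. Of 10 ATG genes 6 were lower and 2 higher. ATG8H read 122, 106 and 120.4 on the mock apex arrays and 885, 751 and 882 on the whole plant arrays, 7.22-fold lower (-2.85 ± 0.18 SE, adjusted p = 4.4e-09). ATG8E read 464, 412 and 419 against 1386, 1124 and 1101 (-1.47 ± 0.14), APG8A differed by -1.04 ± 0.13 and ATG8F by -0.95 ± 0.10. ATG8G (0.67 ± 0.15) and ATG8D (0.32 ± 0.10), named after their values were seen, were higher. The GAPDH covariate gave 0 higher and 5 lower of the 10, so both higher calls were lost. The 8 aldehyde dehydrogenases all stayed within 2-fold, 5 higher and 2 lower, and with the GAPDH covariate 3 and 1. Of all probe sets 44.7% were higher and 28.8% lower. ALDH6B2 (0.72 ± 0.09), ALDH22A1 (0.69 ± 0.13, uncalled with the GAPDH covariate) and ALDH10A8 (0.58 ± 0.08) were higher and ALDH2C4, which forms ferulate and sinapate, lower (-0.87 ± 0.08).

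Among the probe sets with high signals that differed at least 4-fold were several known by locus code alone, to which no role is given here. Of the 7953 tested with 1 gene, all but 1154 carry such a code. On the apex side, AT4G22490 read 5719, 6716 and 8561 on the mock apex arrays and 204, 243 and 178 on the whole plant arrays, 33.4-fold higher (5.06 ± 0.36 SE, adjusted p = 1.46e-08). On the 6 other apex arrays it ranged from 983 to 9189. AT4G29030 read 11768, 10631 and 11369 against 1324, 1101 and 1332 (3.17 ± 0.09), AT2G28790 10128, 9734 and 11607 against 1189, 1264 and 1189.9 (3.11 ± 0.09), AT5G48480 6424, 7038 and 8365 against 1249, 1189.8 and 1363 (2.51 ± 0.09) and AT1G62480 14083, 14248 and 13328 against 3562, 3388 and 3350.0 (2.02 ± 0.10). The lowest reading of these 4 genes on the 6 other apex arrays was 5504, for AT5G48480. BCAT4, an aminotransferase that starts the methionine branch of glucosinolate synthesis, read 7952, 7785 and 10857 against 1057, 2001 and 2081 (2.42 ± 0.25).

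On the whole plant side, AT3G05730 read 605, 764 and 623 on the mock apex arrays and 17422, 15202 and 15627 on the whole plant arrays, 24.3-fold lower in the apex (-4.60 ± 0.15 SE, adjusted p = 5.11e-12). AT3G22240 read 115, 158 and 166 against 7567, 6985 and 7020.0, 49.8-fold lower. AT4G16980 read 2189, 2086 and 3121 against 12122, 11715 and 11942 (-2.30 ± 0.13), while a second probe set of it was too weak to test (means 48.0 and 52.2). MT1C, a metallothionein, read 5289.9, 4192 and 4212 against 19389, 20257 and 18333 (-2.09 ± 0.12). In each of these genes the spread within a group was small beside the gap between the groups.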

How the data were processed

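RNA of 3 mock apex and 3 whole mock plant samples was read on 1-colour Affymetrix arrays. The deposited table holds linear signal intensities, 1 per probe set and array, made with MAS5 per the submitters' processing notes, which give no version. It has no detection calls. Of 22746 probe sets that are not controls, 13513 are annotated to 1 gene, 503 to several and 8730 are not listed. Of the 13513, 13484 matched the TAIR10.1 gene table. Only those with 1 gene were named, by the probe set with the highest mean where a gene had several.

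Signals were floored at 20 and log2 was taken, with no further normalization. Probe sets with a mean of 100 or more in either group (14634) were fitted in limma 3.58.1 (R 4.3.3) with an intensity trend. All 4 groups shared the spread, with 8 residual degrees of freedom. P-values were adjusted by Benjamini-Hochberg and the threshold was 0.05. The fit was tested on simulated data. The number of arrays limits the precision.

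The comparison, its markers and its gene lists were chosen with earlier results of these data known, and list patterns were revised after values had been seen. Named were up to 4 called genes per list, the 4 markers, and 8 genes of high signal on each side. Members of the shoot, histone and plastid genome lists could also be given. Other genes are marked where they appear. The result of 1 of the lists is not reported here. A planned search of promoters for motifs was not run. The alternatives were another floor, a pseudocount, other filters, quantile normalization, median centring, the 6 arrays alone, no trend, a replicate block, the GAPDH covariate, and leaving out each array.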

Additional observations from a re-analysis of the deposited data

How the results depend on the processing

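The main counts were 6539 higher and 4209 lower. The GAPDH 3' to 5' ratio as a covariate moved both by over 1.5 times, to 4042 higher and 2740 lower. The ratio differs between the groups, so with it in the fit the group difference is estimated less precisely. Called and at least 2-fold, 2270 were higher and 1973 lower with it, beside 2196 and 2135 in the main fit. Leaving out each array in turn gave 6146 to 6481 higher and 3893 to 4152 lower. The fit with a replicate block gave 6478 higher and 4175 lower. Deviations of same-numbered arrays correlated at 0.06, -0.02 and -0.02, and not every array correlated best with its own number. With 3 arrays a group, this cannot show whether same-numbered samples shared a culture or a batch. Without the filter on low signals there were 6654 higher and 4900 lower of 22746. Median centring gave 5500 and 4906, which takes the share of calls that were higher from 60.8% to 52.9%. Quantile normalization gave 5900 and 4636. Of 44 lists, the 30 with a median of at least 0.5 in size kept its sign under both of these. Of the other 14, the sign turned with median centring for subtilases and carboxypeptidases (-0.06) and for CLE and RALF genes (-0.08), and with quantile normalization for the latter (-0.05). Over 181 named genes, 2830 of 2871 values kept direction and call. The SNF7.1 difference turned from -0.51 to 0.08 with the GAPDH covariate. In all, 37 genes had a changed call, 36 of them under that covariate; the cause was not tested. The weak genes are limited by the floor.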
